A study of Homo sapiens with 6 samples.

Results

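The 6 messenger RNAs that human mitochondrial DNA (mtDNA) encodes for complexes III, IV and V of oxidative phosphorylation were followed in HK2 cells, a kidney cell line derived from adult proximal tubule and immortalised with papillomavirus genes. They are MT-CYB of complex III, MT-CO1, MT-CO2 and MT-CO3 of complex IV, and MT-ATP6 and MT-ATP8 of complex V. Each was taken by gene symbol from a deposited table of 25808 genes, in which all 6 were found. In 3 libraries confluent cells had been given 20 µM TBOEP (tris(2-butoxyethyl) phosphate, an organophosphate flame retardant and plasticiser) for 48 hours. The other 3 libraries were labelled DMSO, the solvent, with no dose or time stated. All 6 libraries come from a single cell line. Nothing in the labels ties replicates to separate cultures, and p-values here therefore cover the spread among libraries, possibly a technical one. The study asked how the compound bears on renal metabolism.

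Complex III passes electrons from ubiquinol to cytochrome c, and complex IV passes them on to oxygen. Both pump protons out of the mitochondrial matrix, and complex V, the ATP synthase, uses the returning protons to make ATP. Most subunits of the 3 complexes come from nuclear genes, and mtDNA supplies a few that sit in the inner membrane. The mtDNA is transcribed as long polycistronic RNAs, which are cut largely at the tRNAs that lie between the genes. Proximal tubule cells rely on oxidative phosphorylation to drive reabsorption.

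The 6 genes lie on the same strand and have 207 to 1542 bases in GENCODE 29. MT-ATP8 and MT-ATP6 share 1 bicistronic mRNA with overlapping reading frames, and no tRNA separates MT-ATP6 from MT-CO3. The stretch that belongs to both ATP synthase genes has 46 bases, which is 22.2% of MT-ATP8 and 6.75% of MT-ATP6. It is shown because reads from it can be assigned to either gene, and how the authors' counting treated it is not given in the sources used here. In the GENCODE 29 transcripts (GRCh38, plus strand of the mtDNA), the first capitals mark the start codon of MT-ATP6 and the last capitals the stop codon of MT-ATP8.
MT-ATP8 and MT-ATP6 overlap: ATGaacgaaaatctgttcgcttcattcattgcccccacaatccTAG

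The nuclear genome also holds copies of mtDNA, and reads can be shared with these. MTATP6P1, an unprocessed pseudogene on chromosome 1, matched MT-ATP6 in all but 10 of 681 bases, or 98.5% identity. The first of the differences, counted from the first base of MT-ATP6, is G19A. It is shown in capitals within 30 bases of each gene, to give a sense of how little separates a read of the one from a read of the other.
MT-ATP6: aacgaaaatctgttcGcttcattcattgcc
MTATP6P1: aacgaaaatctgttcActtcattcattgcc

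The values were read as FPKM (fragments per kilobase of gene, scaled to library size), so that levels of different genes can be compared per length. Library totals recovered from the steps between FPKM values were 32547856 to 35838657 reads with TBOEP and 33536445 to 38247579 reads with DMSO. The 6 mRNAs together took 3.01% ± 0.0947 of reads with TBOEP and 3.41% ± 0.152 with DMSO (SD, n = 3 each), or 946466 to 1088671 and 1096168 to 1295856 reads. Of the listed proximal tubule markers, PAX8 stood at 36.7 ± 0.204 FPKM with TBOEP and 37.1 ± 1.43 FPKM with DMSO. HAVCR1 was at 17.3 ± 1.29 and 17.8 ± 0.517 FPKM. MIOX was lower with TBOEP, at 14.9 ± 1.6 against 19.9 ± 0.711 FPKM (limma adjusted p = 0.00178). So was CDH6, at 3.79 ± 0.104 against 4.41 ± 0.0376 FPKM (limma adjusted p = 0.0142). The brush-border and uptake genes CUBN, SLC34A1, AQP1, GGT1 and ANPEP were under 1 FPKM in every library. The 9 listed proximal tubule markers in the table summed to 72.9 to 74.1 FPKM with TBOEP and 79.1 to 81.7 FPKM with DMSO, and 5 epithelial markers to 743 to 762 and 833 to 869 FPKM. Among the epithelial markers KRT8 (273 against 338 FPKM) and KRT19 (354 against 403 FPKM) were lower with TBOEP. KRT18 was higher (110 against 94.8 FPKM), EPCAM was at 14.6 and 12.9 FPKM, and CDH1 reached at most 0.0393 FPKM. The part of these markers in the results below was not tested. Summed leukocyte markers reached 1.24 to 1.35 FPKM with TBOEP and 1.2 to 1.71 FPKM with DMSO. Summed endothelial and podocyte markers stayed under 0.1 FPKM in both groups. These sums rest on few genes, since the table held 2 of 4 listed leukocyte, 2 of 3 endothelial and 1 of 3 podocyte markers. The leukocyte sum was mostly CSF1R, at 1.24 FPKM with TBOEP and 1.41 FPKM with DMSO. LRP2, also listed for proximal tubule, was not found in the table.

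All 6 mRNAs had a lower mean in TBOEP-treated cells, with changes in mean FPKM between -5.25% for MT-CO1 and -35.1% for MT-ATP8. The limma fit of log2(FPKM + 1) covered 9631 genes, over which p-values were adjusted by the Benjamini-Hochberg method, and 4 of the 6 fell at an adjusted p under 0.05: MT-CYB, MT-CO2, MT-CO3 and MT-ATP6. The other 2, MT-CO1 and MT-ATP8, were not called, and 0 rose. Over all tested genes 53.8% were called, 26.9% lower and 26.9% higher. The median log2 fold change was -0.23 over the 6 mRNAs and -0.02 over all tested genes. In 5 of the 6, every TBOEP library lay below every DMSO library, a pattern held by 31.8% of tested genes, while in 30.5% every TBOEP library lay above. TBOEP replicate 3 was the lowest TBOEP library for 6 of the 6 mRNAs, and DMSO replicate 3 the highest DMSO library for 5 of them. With each library centred on its median, all 6 mRNAs were called lower, where 35.0% of tested genes were. That scaling gave 38.6% of called genes as higher, against 50.1% in the fit above. These values are relative to the other RNAs of a library, and in bulk RNA a smaller share of cells that hold an mRNA and less of it per cell cannot be told apart.

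**Figure D1:**
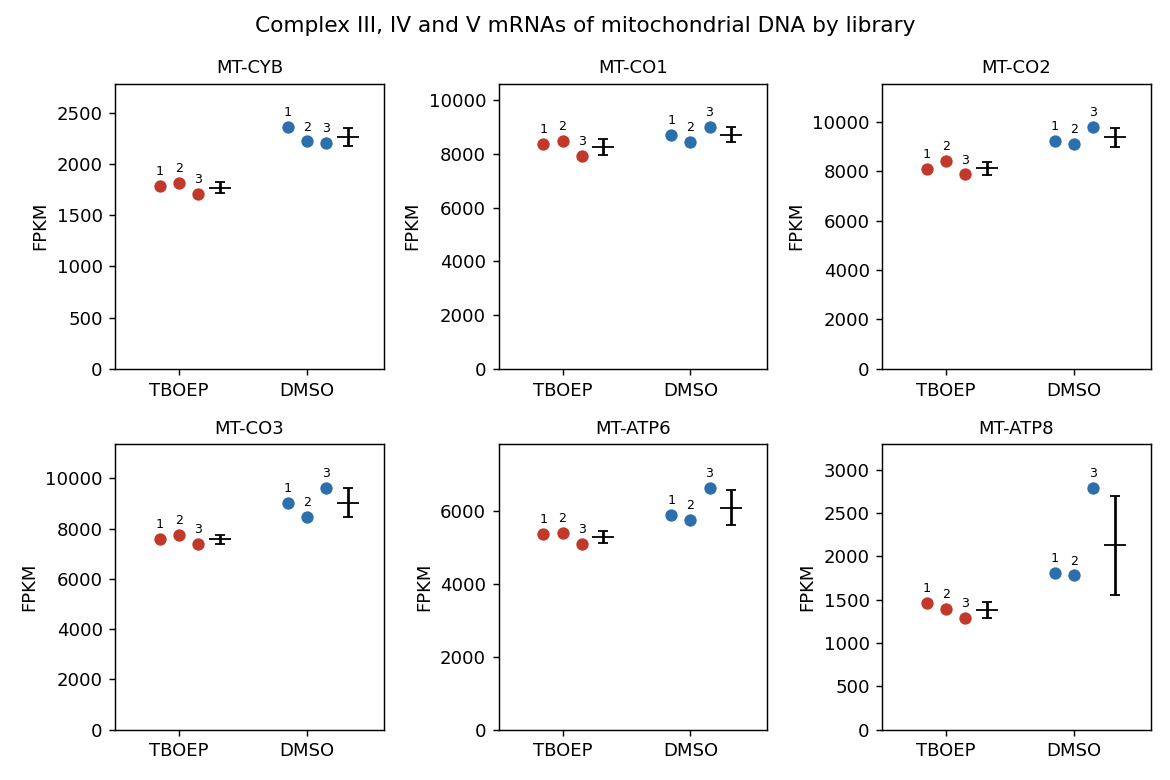
FPKM of the 6 mRNAs in each library (points, numbered by replicate), TBOEP left and DMSO right in each panel, with the mean and SD of 3 libraries as a bar; axes start at 0. The groups are apart in 5 panels and overlap for MT-CO1, and DMSO replicate 3 stands at 2789 FPKM for MT-ATP8.

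MT-CYB encodes cytochrome b, the haem-bearing core of complex III and its sole mtDNA subunit. It had 1786, 1817 and 1707 FPKM in TBOEP replicates 1 to 3, against 2359, 2221 and 2206 FPKM in DMSO replicates 1 to 3. The groups did not overlap, and replicates within each lay close together. The log2 fold change of MT-CYB was -0.35, with an SE of 0.04 (limma adjusted p = 5.16e-05), and its mean FPKM fell by 21.7%. Quantile normalization ended the call (-0.14, adjusted p = 0.0681), and the correction for GC content and length described further on moved the value to -0.63.

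MT-CO1 encodes the catalytic subunit of complex IV, where oxygen is reduced. It had 8373, 8479 and 7929 FPKM in TBOEP replicates 1 to 3, against 8713, 8445 and 8996 FPKM in DMSO replicates 1 to 3. The groups overlapped, since TBOEP replicate 2 exceeded DMSO replicate 2. The log2 fold change was -0.08 ± 0.03 (limma adjusted p = 0.088), so a fall was not called. The same fold change was called with limma-voom on the recovered reads (adjusted p = 0.028, where 29.2% of genes were called lower), and a larger one with each library centred on its median (-0.14, adjusted p = 0.00746).

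MT-CO2 encodes the subunit that takes electrons from cytochrome c. It had 8080.3, 8410.3 and 7873 FPKM in TBOEP replicates 1 to 3, against 9219.7, 9091 and 9784 FPKM in DMSO replicates 1 to 3. It fell by 0.21 ± 0.04 on the log2 scale (limma adjusted p = 0.00143), with no overlap between groups. MT-CO3, the third core subunit of complex IV, had 7591, 7737 and 7388 FPKM in TBOEP replicates 1 to 3, against 9012, 8454 and 9622 FPKM in DMSO replicates 1 to 3. Again every TBOEP library was below every DMSO library. MT-CO3 fell by 0.25 ± 0.05 on the log2 scale (limma adjusted p = 0.00173).

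MT-ATP6 encodes a subunit of the membrane part of the ATP synthase that forms the path of the protons. It had 5358, 5384 and 5082 FPKM in TBOEP replicates 1 to 3, against 5883, 5749 and 6622 FPKM in DMSO replicates 1 to 3. The groups did not overlap. MT-ATP6 fell by 0.20 ± 0.05 on the log2 scale (limma adjusted p = 0.0154). The call ended with quantile normalization (log2 fold change 0), without TBOEP replicate 3 (adjusted p = 0.061), with limma-voom (0.0602), with no filter on low values (0.0657) and with mtDNA left out of the scaling total (0.0608, where 22.7% of genes were called lower).

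MT-ATP8, a small membrane subunit next to MT-ATP6, had 1461, 1395 and 1284 FPKM in TBOEP replicates 1 to 3, against 1812, 1779 and 2789 FPKM in DMSO replicates 1 to 3. The TBOEP libraries were all below the DMSO libraries, and DMSO replicate 3 stood far above the other DMSO libraries. Its reads were 10838, 10072 and 8653 with TBOEP and 14349, 12347 and 20838 with DMSO, so counting error was 0.98 to 1.52% even if reads came in pairs, against a spread between DMSO libraries of 27%. The log2 fold change was -0.59 ± 0.21 (limma adjusted p = 0.0728). Without DMSO replicate 3 it was -0.38 ± 0.05 and was called (adjusted p = 0.00141). It was also called by limma without a trend (0.0376) and with median centring (0.0496). In DMSO replicate 3 MT-CO1, MT-CO2, MT-CO3 and MT-ATP6 were at their highest too, whereas MT-CYB was at its lowest of the DMSO libraries. Because MT-ATP8 shares 46 bases with MT-ATP6, its value is uncertain.

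The order of levels per length was not the same in both groups. With TBOEP it ran MT-CO1, MT-CO2, MT-CO3, MT-ATP6, MT-CYB and MT-ATP8, with means of 8260.3, 8121, 7572, 5275, 1770.1 and 1379.9 FPKM. With DMSO it ran MT-CO2, MT-CO3, MT-CO1, MT-ATP6, MT-CYB and MT-ATP8, with means of 9365, 9029, 8718, 6085, 2262 and 2127 FPKM. Among the complex IV mRNAs the ranges of neighbours in this order overlapped within each group, apart from MT-CO2 and MT-CO3 with TBOEP. The DMSO ranges of MT-CYB and MT-ATP8 overlapped as well. In DMSO replicate 3 MT-ATP8, at rank 17 of all genes, stood above MT-CYB at rank 24, the reverse of DMSO replicates 1 and 2. The complex IV mRNAs kept 1 order within each group's libraries: MT-CO1 ranked 3rd of all genes in each TBOEP library, above MT-CO2 at 4th and MT-CO3 at 5th, whereas MT-CO2 ranked 2nd, MT-CO3 3rd and MT-CO1 4th in each DMSO library. MT-ATP6 ranked 6th in all 6 libraries.

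Ratios between the mRNAs do not depend on how a library is scaled. The FPKM ratio of MT-CO2 to MT-CO1 was 0.965, 0.992 and 0.993 in TBOEP replicates 1 to 3, against 1.06, 1.08 and 1.09 in DMSO replicates 1 to 3. The ratio of MT-CYB to MT-CO1 was 0.214 ± 0.00102 with TBOEP and 0.26 ± 0.0131 with DMSO, and that of MT-CO3 to MT-CO1 0.917 ± 0.0131 and 1.04 ± 0.0343 (SD, n = 3 each). By these FPKM ratios the other mRNAs of complexes III and IV were lower relative to MT-CO1 in every TBOEP library than in any DMSO library. MT-ATP8 over MT-ATP6 was 0.273, 0.259 and 0.253 with TBOEP, against 0.308, 0.309 and 0.421 with DMSO. For these 4 ratios the groups did not overlap and the two-sided exact permutation p was 0.1, the smallest that 3 against 3 libraries allow, or 0.125 adjusted over the 5 ratios computed. The ratio of MT-CO3 to MT-ATP6 overlapped between groups, at 1.44 ± 0.0185 with TBOEP and 1.49 ± 0.0415 with DMSO (exact permutation p = 0.2).

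MT-CO1 has 1542 bases and MT-CO2 684, at 46.2% GC each. After each library was corrected for a smooth surface of GC content and length, MT-CO1 was at -0.40 ± 0.03 (limma adjusted p = 3.85e-05) and MT-CO2 at -0.40 ± 0.04 (1.48e-04). The log2 fold change of MT-CO2 less that of MT-CO1 was then 0.00 in place of -0.13. For MT-CYB less MT-CO1 it was -0.23 in place of -0.28, and for MT-CO3 less MT-CO1 -0.07 in place of -0.17. For MT-ATP6 less MT-CO1 the sign turned, to 0.05 in place of -0.13. For MT-ATP8 less MT-CO1 the value was -0.04 in place of -0.52. MT-CYB was at -0.63 ± 0.04 after the correction (5.66e-06), MT-CO3 at -0.47 ± 0.05 (2.26e-04) and MT-ATP6 at -0.34 ± 0.06 (0.0027). MT-ATP8 was at -0.44 ± 0.18 and not called (0.113). The correction thus gave 5 calls among the 6 mRNAs, where 24.3% of 9529 genes were called lower. Only 1.02% of tested genes were shorter than MT-ATP8 and 5.37% shorter than MT-ATP6, so that part of the surface rests on few genes.

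**Figure D2:**
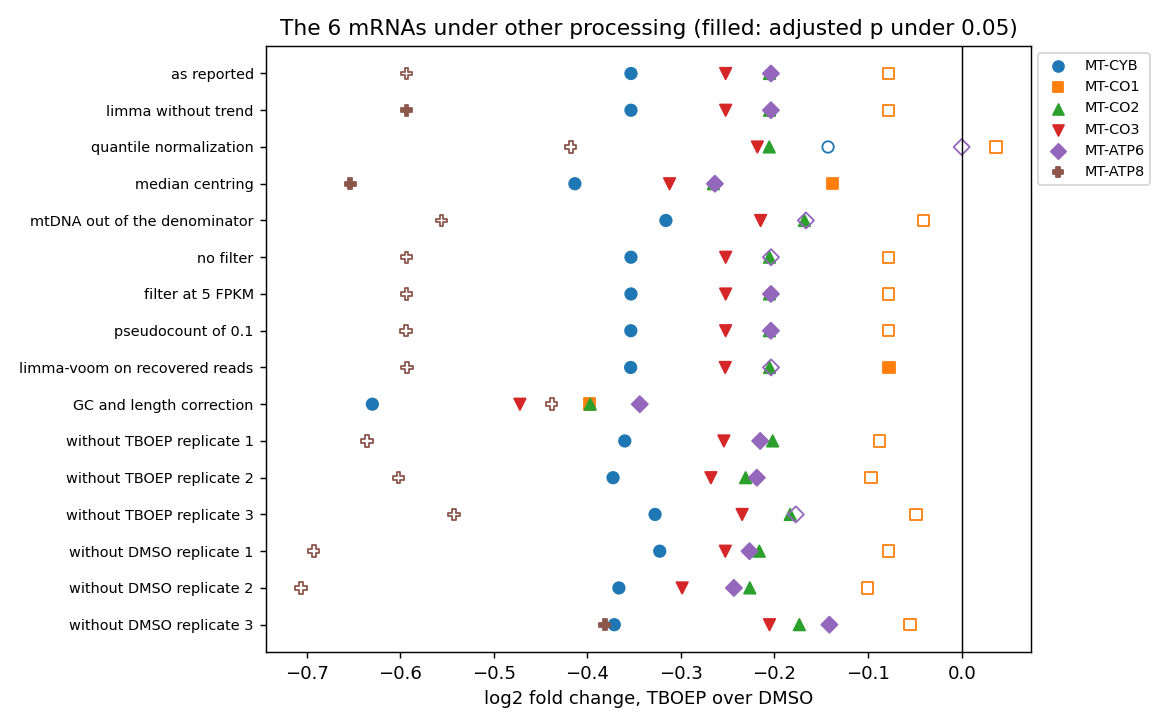
Log2 fold change, TBOEP over DMSO, of the 6 mRNAs (symbols) as reported and under other processing or with 1 library left out; filled symbols have an adjusted p under 0.05. MT-CYB is furthest left of those called as reported, at -0.35, and quantile normalization puts MT-ATP6 at 0 and MT-CO1 at 0.04.

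Quantile normalization left 2 of the 6 mRNAs called lower, where 29.9% of tested genes were. It sets genes of equal rank to the same value in every library, and MT-ATP6, ranked 6th throughout, came out at a log2 fold change of 0. MT-CO1, ranked higher with TBOEP than with DMSO, came out at 0.04 (limma adjusted p = 0.148). MT-CYB was at -0.14 (limma adjusted p = 0.0681), and MT-CO2 and MT-CO3 were called, at -0.21 and -0.22. MT-CO1, MT-CO2, MT-CO3 and MT-ATP6 each kept 1 rank within a group, so this setting gave each the same value in all libraries of that group. Their SE of 0.02 thus held no spread among their own libraries, and the calls of MT-CO2 and MT-CO3 reflect their ranks. For RNAs at the very top of the table, ranks bound what this setting can show. The 6 mRNAs were also not alone among abundant genes: of 44 tested genes that averaged 1000 FPKM or more, 30 were called lower and 5 higher. Without mtDNA genes the counts were 20 and 5 of 32, with a median log2 fold change of -0.21. What part abundance has in the falls was not tested.

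The 13 mRNAs of mtDNA together held 12.8% ± 0.456 of all FPKM with TBOEP and 14.4% ± 0.684 with DMSO (SD, n = 3 each). The 7 complex I mRNAs, which encode NADH dehydrogenase subunits, all fell, with log2 fold changes from -0.48 in MT-ND6 to -0.21 in MT-ND4 and a median of -0.32. Over all tested genes 26.9% were called lower. Every TBOEP library was below every DMSO library in all 7, a pattern of 31.8% of tested genes. Quantile normalization ended the calls of MT-ND2 (-0.04, adjusted p = 0.32) and MT-ND4L, whose sign turned (0.07, adjusted p = 0.397), and correcting for GC and length likewise ended the MT-ND4L call (adjusted p = 0.0792). The complex III, IV and V mRNAs took 69.8% ± 0.258 of the summed FPKM of the 13 with TBOEP and 68.7% ± 0.61 with DMSO. The 12S ribosomal RNA MT-RNR1 was at 537 ± 19.9 FPKM with TBOEP and 561 ± 24.3 FPKM with DMSO and was not called (limma adjusted p = 0.218), while the 16S ribosomal RNA MT-RNR2 fell by 0.27 ± 0.06 (adjusted p = 0.0118). MT-RNR1 was called lower with median centring (-0.12, limma adjusted p = 0.0229) and after the GC and length correction (-0.29, 5.57e-04), and quantile normalization put MT-RNR2 at 0. Ribosomal RNA is removed or missed by common library kits, so these levels need not stand for the cell's.

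**Figure D3:**
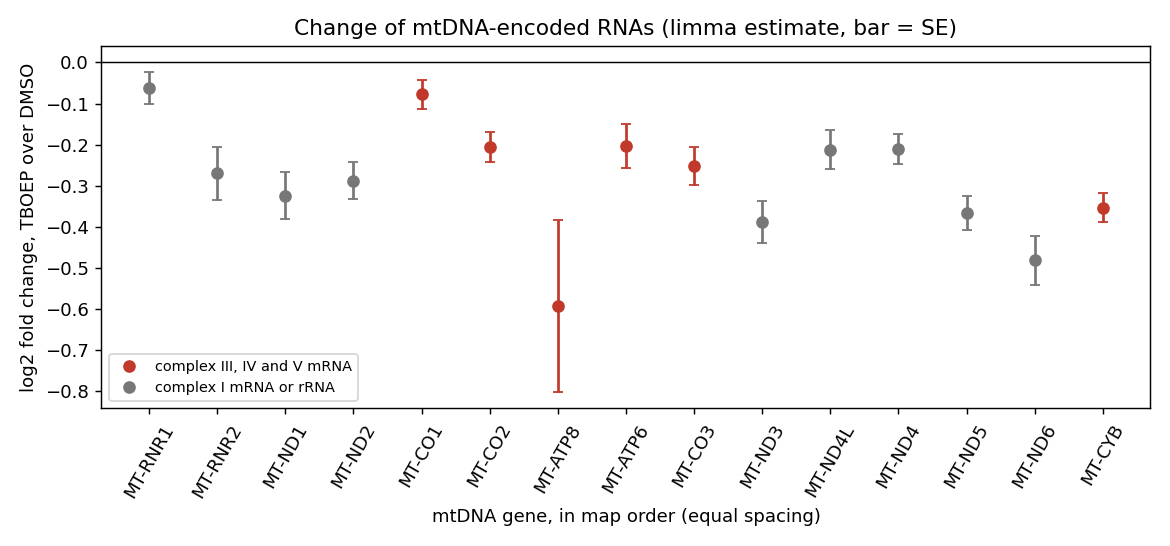
Log2 fold change, TBOEP over DMSO, with its SE from limma, for the 13 mRNAs and 2 ribosomal RNAs of mtDNA in map order; complex III, IV and V mRNAs are red. All 15 lie below 0, MT-RNR1 and MT-CO1 nearest to it at -0.06 and -0.08, and MT-ATP8 has the widest bar.

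The falls did not grow or shrink steadily along the mtDNA map. MT-CO2 and MT-ATP6 were at -0.21 and -0.20, MT-ND4L and MT-ND4 further on were both at -0.21, and MT-CYB at the far end was at -0.35. MT-CYB has the same transcription direction as its complex IV and V partners, whereas MT-ND6, at -0.48, is read from the other strand. Whether the authors counted by strand is unknown, and reads of the 2 strands may not have been told apart.

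As a share of the summed FPKM of the 13 mRNAs, MT-CO1 had 17.8% ± 0.0577 with TBOEP and 15.95% ± 0.336 with DMSO (SD, n = 3 each), with no overlap between groups. MT-ATP8 held 2.97% ± 0.123 with TBOEP and 3.86% ± 0.84 with DMSO, also with no overlap. For both the exact permutation p was 0.1, the smallest possible, and 0.3 adjusted over the 6 mRNAs. The shares of the other 4 overlapped between groups: MT-CYB had 3.82 and 4.14%, MT-CO2 17.5 and 17.1%, MT-CO3 16.3 and 16.5% and MT-ATP6 11.4 and 11.1% with TBOEP and DMSO, with exact permutation p from 0.2 to 0.4.

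**Figure D4:**
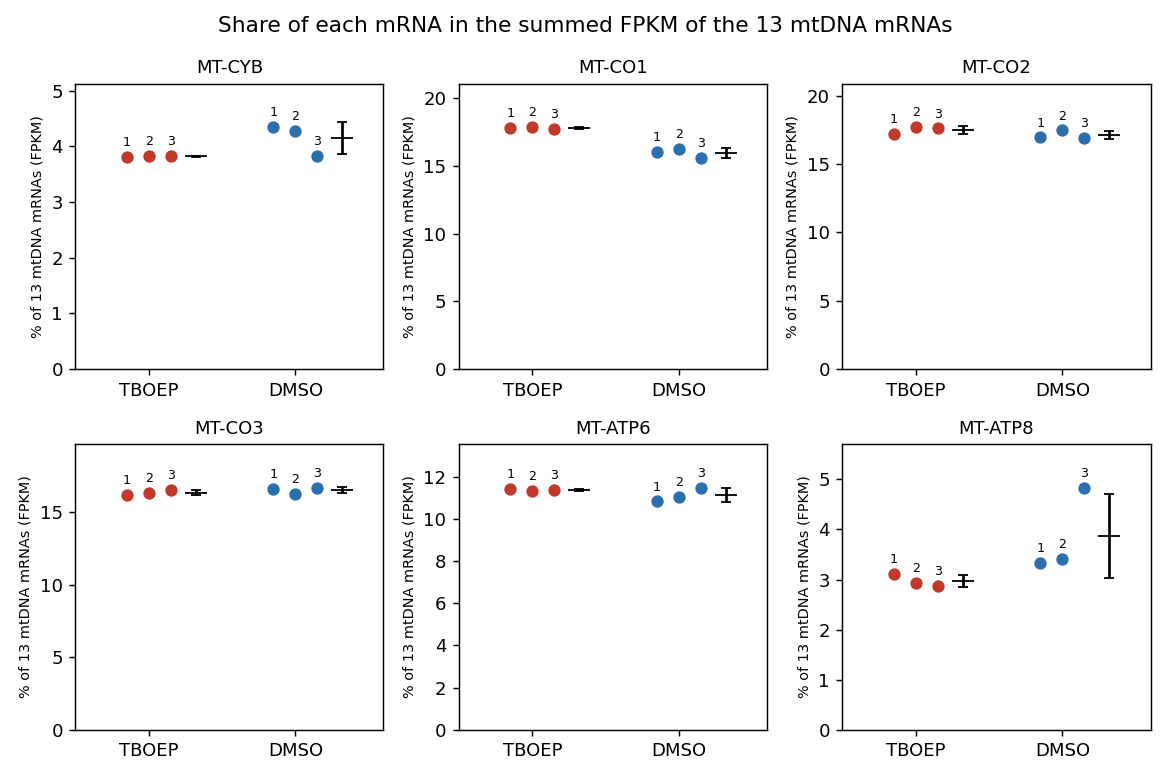
Share of each mRNA in the summed FPKM of the 13 mtDNA mRNAs, in percent, by library (points, numbered by replicate), TBOEP left and DMSO right, with the mean and SD of 3 libraries; axes start at 0. MT-CO1 is above all DMSO libraries with TBOEP, MT-ATP8 below them, and the other 4 overlap.

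Nuclear copies of these genes took few reads, with 1 exception. Of 13 copies in the table, 3 passed the filter of at least 1 FPKM in at least 3 libraries. MTATP6P1 stood at 1054 ± 54.8 FPKM with TBOEP and 1242 ± 119 FPKM with DMSO and had a log2 fold change of -0.23 ± 0.07 (limma adjusted p = 0.0351). That call ended under 8 alternatives, among them limma-voom (adjusted p = 0.0858) and leaving out TBOEP replicate 1, TBOEP replicate 3 or DMSO replicate 2 (0.0699, 0.103 and 0.0611). It was 19.5 to 20.4% of the FPKM of MT-ATP6 with TBOEP and 19.7 to 20.8% with DMSO. How reads that fit both were assigned is not given in the sources used here, and the value of each is uncertain. With the copy added, MT-ATP6 had a log2 difference of -0.21, against -0.20 alone. MTCO1P12, a copy of MT-CO1 at 98.7% identity, had 11.4 ± 1.68 FPKM with TBOEP and 16.6 ± 1.75 FPKM with DMSO. Its groups did not overlap, and it was called lower, at -0.51 ± 0.11 (limma adjusted p = 0.00867), while MT-CO1 was not called. Adding MTCO1P12 left MT-CO1 at -0.08. MTCO3P12 was at 5.73 ± 1.4 and 5.49 ± 0.6 FPKM with TBOEP and DMSO, and MTCO2P2, below the filter, at 0.823 ± 0.178 and 0.743 ± 0.214 FPKM.

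Nuclear genes for the same complexes split in direction, and their counts stand beside the 26.9% of all tested genes called higher and 26.9% called lower. Of 8 tested nuclear subunits of complex III, 5 fell and 1 rose, or 62.5% and 12.5%, with a median log2 fold change of -0.15. The riser was UQCRFS1, the Rieske iron-sulphur protein, by 0.73 ± 0.03. CYC1, which encodes cytochrome c1, fell by 0.53 ± 0.03, UQCRQ by 0.31 ± 0.04 and the core protein UQCRC1 by 0.22 ± 0.03, a call that the GC and length correction ended (-0.06, limma adjusted p = 0.0981). UQCRC2, the other core protein, was listed at 0.09 ± 0.0427 FPKM with TBOEP and 0.241 ± 0.388 FPKM with DMSO. UQCRC2 was below the filter and was not tested. The same held for COX5B of complex IV, at 0.0262 FPKM with TBOEP and 0.0123 FPKM with DMSO. It also held for ATP5IF1 of complex V, at 0.00418 and 0.00447 FPKM. Whether the deposited values miss reads of such genes was not tested. Among 6 assembly factors of complex III, UQCC1, which acts in making cytochrome b, rose by 0.48 ± 0.04 and TTC19 by 0.23 ± 0.05 (not called after the correction, limma adjusted p = 0.183), while UQCC2, the partner of UQCC1, fell by 0.15 ± 0.03. BCS1L, which inserts the Rieske protein, was at -0.11 ± 0.05 and not called (limma adjusted p = 0.104), but was called at -0.20 after the correction (0.0161).

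Of 12 tested nuclear subunits of complex IV, 7 fell, or 58.3%, and 0 rose (2 were called higher with mtDNA out of the scaling total), and their median of -0.24 stood beside values of -0.25, -0.21 and -0.08 for MT-CO3, MT-CO2 and MT-CO1. COX7A2 fell by 0.51 ± 0.04, COX6B1 and COX7C by 0.39 each and COX8A by 0.38 ± 0.03. Of 18 tested assembly factors of complex IV, 8 were called higher, or 44.4%, 3 were called lower, or 16.7%, and 7 were not called, with a median of 0.13. After the GC and length correction the balance turned, with 5 called higher and 6 lower. Over all 9529 genes tested there, 2040 were called higher and 2320, or 24.3%, lower. TIMM21 rose by 0.55 ± 0.07, the haem-binding factor COA7 by 0.43 ± 0.06 and SCO1, which hands copper to the site in MT-CO2, by 0.40 ± 0.06. COX14, which takes part in making MT-CO1, fell by 0.43 ± 0.03.

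Of 17 tested nuclear subunits of complex V, 6 rose and 8 fell, or 35.3% and 47.1%, with a median of -0.08. The 5 subunits of the F1 part did not move one way: ATP5F1A rose by 1.03 ± 0.03, ATP5F1B by 0.93 ± 0.02 and ATP5F1C by 0.59 ± 0.03, whereas ATP5F1D fell by 0.46 ± 0.05 and ATP5F1E by 0.29 ± 0.04. ATP5MC1, a gene for the membrane ring that turns against MT-ATP6, fell by 0.36 ± 0.04. Of 4 tested assembly factors 3 rose: ATPAF1, which acts on the catalytic head, by 0.52 ± 0.05, TMEM70 by 0.49 ± 0.05 and TMEM242 by 0.27 ± 0.06, while ATPAF2 stood at -0.01 (limma adjusted p = 0.931) and was called lower after the GC and length correction (-0.25, 0.00463). Cytochrome c itself, CYCS, was at 37.7 ± 0.149 FPKM with TBOEP and 38.6 ± 2.6 FPKM with DMSO (0.614), and HCCS, which attaches its haem, rose by 0.47 ± 0.04.

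**Figure D5:**
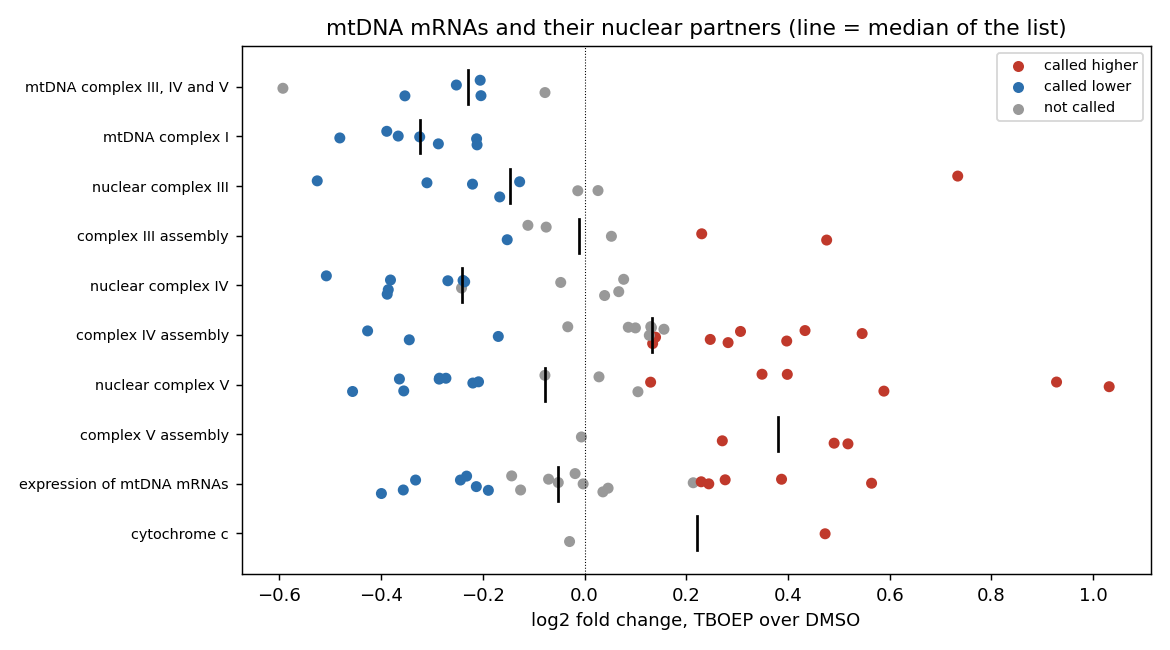
Log2 fold change, TBOEP over DMSO, of the mtDNA mRNAs and of tested nuclear genes for the same complexes, their assembly and the expression of mtDNA mRNAs (points coloured by call; the line is the list's median). The mtDNA lists lie wholly below 0, while nuclear complex V spreads from -0.46 to 1.03.

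Genes that transcribe, process and stabilise the mtDNA mRNAs were also mixed: of 21 tested, 5 rose and 7 fell, with a median of -0.05. Those shares of 23.8% and 33.3% lie near the 26.9% of all tested genes in each direction. After the GC and length correction 2 were called higher and 9 lower, beside 2040 higher and 2320 lower of all 9529 genes. POLRMT, the mitochondrial RNA polymerase, fell by 0.36 ± 0.04. FASTK, which acts on the MT-ND6 mRNA, fell by 0.40 ± 0.04 and HSD17B10, a subunit of mitochondrial RNase P, by 0.33 ± 0.04, while the ribonuclease REXO2 rose by 0.56 ± 0.05. TFAM, which packages mtDNA and starts its transcription, stood at 6.85 ± 0.339 FPKM with TBOEP and 7.67 ± 0.562 FPKM with DMSO (limma adjusted p = 0.074), and was called lower under 4 alternatives, such as median centring (-0.20, 0.0168). LRPPRC, which stabilises mtDNA mRNAs, was near the filter, at 0.863 ± 0.0575 FPKM with TBOEP and 1.19 ± 0.0352 FPKM with DMSO. Every TBOEP library was under 1 FPKM, so LRPPRC was tested only because its DMSO libraries passed the filter. Its log2 fold change of -0.23 ± 0.06 therefore carries no weight as a call, and adding 1 to such low values shrinks it.

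Outside mtDNA the 5 tested genes whose profile over the 6 libraries was most like the mean of the 6 mRNAs were TFR2, VPS26A, HSP90B1, PITPNB and ACADM. Likeness was the root mean square difference of centred log2(FPKM + 1) values, at 0.02 to 0.03 for these genes. For the 6 mRNAs against their own mean it was 0.03 for MT-CO3, 0.11 for MT-CO1 and 0.22 for MT-ATP8. ACADM, a dehydrogenase of medium-chain fatty acid oxidation in mitochondria, was at a low level of 1.45 FPKM with TBOEP and 1.9 FPKM with DMSO. At that level the added 1 shrinks log2 differences, so the likeness of ACADM depends on the scale used.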

How the data were processed

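RNA-seq of HK2 cells was analysed in 3 TBOEP and 3 DMSO libraries, grouped by treatment label. The authors deposited 1 value per gene and library with no unit in the header. The deposited values were read as FPKM. Multiplied by a gene length, those of a library were whole multiples of 1 step, which differed between libraries. A step alone does not name the unit, which stays inferred. Summed values per library ran from 361398 to 381855. The submitters' processing notes name Trimmomatic and HISAT2. For the counter, build and annotation, the answer is "not given in the sources used here". The labels' protocols name 2 library kits, 1 of them stranded, without saying which applied. Whole reads were recovered within 0.01 reads for 25806 of 25808 genes, at the GENCODE 29 length in 10339, all 13 mtDNA mRNAs among them. For the rest the shortest length that gave whole reads was taken. Genes with few nonzero values meet that easily, so the total says little about them. Symbols matched 25795 IDs. Intervals from reads cover counting error only.

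The test was limma 3.58.1 (R 4.3.3, trended and robust) on log2(FPKM + 1), two-sided, with no covariate, and genes had to reach 1 FPKM in 3 of the 6 libraries; a fold change on this scale understates that of low genes. Ratios and shares used exact permutation tests (scipy 1.17.1). The correction for GC content and length used mgcv 1.9.3 and the longest GENCODE 29 transcript. Alternatives changed the scaling, filter, pseudocount, unit (limma-voom on recovered reads), variance model, replicate block or set of libraries. Both the test and the recovery of reads were run on simulated data. For the test, far fewer genes were changed there than were called here, so that run does not show how it behaves in these data. The nuclear copies were aligned with Biopython 1.88. The 6 mRNAs, the lists and the tests were chosen with earlier results of these data known. In each list up to 4 genes with the smallest p are named, plus genes named for their role after their values were seen. All pairs of replicates differed by more than sampling noise (chi-square over degrees of freedom between 7.74 and 9.39).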

Additional observations from a re-analysis of the deposited data

How the results depend on the processing

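Each of 16 alternatives, 6 of them leaving out 1 library, kept the count of called genes within 1.5 times of 5178, and leaving out a library gave 4556 to 4774. Of the 6 mRNAs 4 were called lower, where 26.9% of tested genes were. The count was 2 with quantile normalization (29.9% of tested genes) and 6 with median centring (35.0%). It was 5 when corrected for GC and length (24.3%) and without the trend (27.3%). With mtDNA out of the denominator (22.7%) and with no filter (7.47%) it was 3. Leaving out a library gave 3 to 5, where 22.8 to 24.2% of tested genes were called lower. Quantile normalization gave log2 fold changes of -0.14 for MT-CYB and 0 for MT-ATP6, neither called, and 0.037 for MT-CO1, the opposite sign; it equalises values at each rank, and MT-ATP6 kept its rank. MT-CO1, not called as reported, was called at -0.14 with median centring, -0.40 when corrected for GC and length, and -0.078 with limma-voom. MT-ATP6 was no longer called at -0.17 with mtDNA out of the denominator, -0.20 with no filter, -0.20 with limma-voom and -0.18 without TBOEP replicate 3. MT-ATP8 was called at -0.59 without the trend, -0.65 with median centring and -0.38 without DMSO replicate 3. The causes were not tested.

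With a library left out, log2 fold changes ran from -0.37 to -0.32 for MT-CYB, -0.10 to -0.05 for MT-CO1, -0.23 to -0.17 for MT-CO2, -0.30 to -0.21 for MT-CO3, -0.24 to -0.14 for MT-ATP6 and -0.71 to -0.38 for MT-ATP8. With mtDNA out of the denominator ATPAF2 turned to 0.02 and CYCS to 0.0068, neither called, and CYCS ran from -0.072 to 0.021 with a library left out. MT-ND4L turned to 0.066 with quantile normalization. Of genes not called as reported, MTCO3P12 turned to -0.029 with quantile normalization, -0.026 with median centring and -0.123 corrected for GC and length, and ran from -0.117 to 0.184 with a library left out. PAX8 turned to 0.022 with mtDNA out of the denominator and 0.0031 corrected for GC and length, and ran from -0.044 to 0.0094 with a library left out. Shares of recovered reads in the 13 mRNAs differed, TBOEP minus DMSO, by -0.512 points for MT-CYB, 2.58 for MT-CO1, 0.0205 for MT-CO2, -0.44 for MT-CO3, 0.018 for MT-ATP6 and -0.22 for MT-ATP8, against -0.326, 1.86, 0.385, -0.168, 0.259 and -0.887 points for shares of FPKM. Without the overlapping frames and MT-ND6, MT-CO3 differed by -0.389 points, MT-CO2 by 0.215 and MT-ATP6 by 0.148. For the other named genes 711 values kept direction and side of the threshold, 13 lost and 11 gained a call, and 12 changed sign. Of the counts of called genes in the lists, 270 stayed within 1.5 times and 18 did not.

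Same-numbered libraries deviated with correlations of 0.105, -0.033 and 0.007, and differently numbered ones with -0.112 to 0.104. Such low values cannot show whether the numbers pair the libraries, which stays unknown. With the replicate number as a block, 4791 of 9631 tested genes were called in either direction, and 24.5% of tested genes were called lower. Of the 6 mRNAs 4 were called lower, MT-ATP6 at an adjusted limma p of 0.041. Counting error of MT-ATP8, the member with the fewest reads, was 0.98 to 1.52%. Its spread between libraries was 6.46% with TBOEP and 27% with DMSO.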
